A study of Mus musculus with 13 samples.

Results

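The comparison set LK bone marrow progenitors that lacked miR-146a directly against LK progenitors that lacked Tifab, and asks where the effects of the 2 single losses part. It used 6 of the 13 RNA sequencing libraries of the study, 3 from each genotype, chosen by their labels. Of the 24062 rows of the deposited table, 11906 genes had a mean of at least 0 log2 CPM (a level: the log2 of a gene's reads scaled to a common library total) over these 6 libraries and were tested. The genes closest inside this limit were Tlr11 and Crisp2, at 0.00044 and 0.00093 log2 CPM, and the closest outside were Zfp467 and Ksr2, at -0.00083 and -0.00099.

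LK cells are marrow cells with c-kit but neither Sca-1 nor lineage markers on their surface, mostly progenitors already committed to myeloid, red cell or platelet fates. The TIFAB_KO donors were TIFAB-/-;miR-146a+/+ and the miR-146a_KO donors TIFAB+/+;miR-146a-/-, so each group carries an intact copy of the gene that the other lacks. Donor marrow was given to Boy/J recipients irradiated with 7.0 Gy and, 3 h later, with 4.75 Gy, and the protocol gives an age of 2 to 5 months. The 3 wild-type (WT, TIFAB+/+;miR-146a+/+) and 4 double knockout (dKO, TIFAB-/-;miR-146a-/-) libraries of the same design entered the fit, so that all 4 genotypes share an estimate of the spread, and they serve below to place each gene. The protocol gives 3 mice a group and the labels do not tie each library to a mouse, so all p-values measure the spread between libraries only. No donor marker is named for the sort, so remaining recipient cells cannot be told apart from donor cells, and the labels do not say which part of either gene was removed.

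Both genes lie in the human region lost in del(5q) myelodysplastic syndrome, and in the mouse they are on different chromosomes. They restrain the same protein: miR-146a pairs through its seed with the messenger RNAs of Traf6 and Irak1, which carry signals from Toll-like receptors to NF-kB, while TIFAB, a relative of the adaptor TIFA, lowers the amount of TRAF6 protein. A microRNA loss can raise the RNA of its targets, whereas a change in TRAF6 protein would be read in RNA only through genes that respond to it.

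The mature miR-146a-5p lost in 1 of the groups is shown with its relative miR-146b-5p, which both groups carry, and with the seed (bases 2 to 8) in capitals. In the RefSeq table of GRCm38.p6 these are the only 2 mature mouse microRNAs with this seed, and they differ from each other at 2 bases. The first lies at chr11:43374435-43374456 on the minus strand and the second at chr19:46342790-46342811 on the plus strand.
mmu-miR-146a-5p: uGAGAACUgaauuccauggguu
mmu-miR-146b-5p: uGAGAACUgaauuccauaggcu

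The messenger RNAs of the defining targets carry the matching letters AGTTCTCA in their 3 prime untranslated regions (GENCODE M21, GRCm38), 4 times in Traf6 and 2 times in Irak1. The Traf6 sites lie on the plus strand at chr2:101697945-101697966, chr2:101698009-101698030, chr2:101698821-101698842 and chr2:101701345-101701366, and the Irak1 sites on the minus strand at chrX:74015393-74015414 and chrX:74015377-74015398. Capitals mark the 8 bases that pair with the seed and the base opposite the first base of the microRNA.
Traf6 site 1: ccgctctggtgttgAGTTCTCA
Traf6 site 2: ccctggaaggcttaAGTTCTCA
Traf6 site 3: gtactttggagtctAGTTCTCA
Traf6 site 4: gactttgctactgcAGTTCTCA
Irak1 site 1: gactcagaggtcaaAGTTCTCA
Irak1 site 2: ttctcatgcttggaAGTTCTCA

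The 6 libraries had totals of 7.83 to 12.8 M reads. Kit, which encodes the c-kit of the gate, stood at 270 to 459 CPM in them, Ly6a, which encodes Sca-1, had 5 to 26 reads, and the T-cell genes Cd3e and Cd3d had 1 to 11. TIFAB_KO replicate 3 was the library least like the others. Its median correlation with the other 5 was 0.948, against 0.968 to 0.976 for the rest, 45S pre-rRNA took 10.7% of its reads against 3.85 to 7.08%, and it had a read in 14460 rows against 15225 to 16292. Results that rest on it are given with and without it.

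The targeted genes were examined first. Tifab RNA stood at 8.95, 11.7 and 12.8 CPM in the TIFAB_KO libraries and at 69.2, 70.8 and 64.4 CPM in the miR-146a_KO libraries. The groups did not overlap, and the level was 6.14-fold higher in miR-146a_KO (log2 difference 2.62 ± 0.31 SE, limma adjusted p = 0.000324, n = 3 and 3). The row of the miR-146a gene, Mir146, had 0 reads in all 13 libraries, so the limit that 3 reads set, 0.235 to 0.383 CPM in the 6 libraries, is all that the data say of it and that genotype cannot be checked from its own transcript.

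Between the knockouts 10 genes of 11906 (0.084%) passed the test, limma at an adjusted p under 0.05. In miR-146a_KO 6 were higher (0.0504% of the genes tested): Tifab, Lyrm7, Wdfy1, Efcab7, H2afy and Vps13c. The 4 lower ones (0.0336%) were Cmss1, Gm2a and a pair outside the naming rule, given because they complete the count, 1700112E06Rik and 2810417H13Rik. Weighting by limma-voom on the recovered reads called the same 10 and Stard6. An unadjusted p under 0.05 was reached by 988 genes with a higher level in miR-146a_KO (8.30%) and by 301 with a lower one (2.53%). The median log2 difference of all genes was 0.10, with 61.8% above 0 and 38.2% below. Without TIFAB_KO replicate 3 the median of the 12006 genes then tested was 0.03, with 55.1% above 0, and an unadjusted p under 0.05 was reached by 2.45% with a higher level and 1.42% with a lower one. Values below without that library are to be read against these.

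Lyrm7 encodes an assembly factor of respiratory complex III. Its level was 2.15, 5.69 and 5.00 CPM in TIFAB_KO and 26.3, 30.3 and 21.2 CPM in miR-146a_KO. The lowest miR-146a_KO library was thus far above the highest TIFAB_KO library, and the difference was 2.68 ± 0.32 on the log2 scale, a 6.43-fold higher level (limma adjusted p = 0.000324). WT libraries held 2.44 to 3.59 CPM and the 4 dKO libraries 19.7 to 30.7 CPM, so TIFAB_KO was near WT and dKO near miR-146a_KO. The dKO group, which shares no library with the comparison, was 3.14 ± 0.30 above WT (limma adjusted p = 2.7e-05). In that comparison 0.0168% of genes were called higher and 0.0504% lower.

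Gm2a encodes the GM2 ganglioside activator, a lysosomal cofactor of hexosaminidase A. It showed the opposite change: 214, 193 and 184 CPM in TIFAB_KO against 77.5, 62.2 and 64.8 CPM in miR-146a_KO. No library of one group reached the other, and the level fell by 1.53 ± 0.15 on the log2 scale in miR-146a_KO relative to TIFAB_KO (2.89-fold, limma adjusted p = 7.43e-05, the smallest of all genes tested). WT held 141 to 193 CPM and dKO 61.0 to 73.9 CPM, the latter lower than WT by the same test (log2 difference -1.33 ± 0.14, limma adjusted p = 5.69e-05).

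Wdfy1 encodes a WD-repeat and FYVE protein reported to link Toll-like receptors 3 and 4 to the adaptor TRIF. Levels were 14.2, 15.7 and 7.35 CPM in TIFAB_KO and 40.7, 39.3 and 45.2 CPM in miR-146a_KO. The 3.52-fold difference (log2 1.82 ± 0.24, limma adjusted p = 0.000886) was well outside the spread of either group. WT stood at 11.8 to 17.8 CPM, beside TIFAB_KO, and dKO at 61.7 to 77.3 CPM, above every other library. It was the 1 called gene among 44 tested components of the signalling route from Toll-like receptors through TRAF6 to NF-kB (0.084% of all genes were called). That list was written with earlier results of these data known, so the count says nothing about the route as a whole.

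Vps13c, a lipid transfer protein of contacts between the endoplasmic reticulum and endosomes, had 119, 177 and 85.2 CPM in TIFAB_KO and 270, 254 and 268 CPM in miR-146a_KO. The TIFAB_KO libraries were spread widely and yet all below the miR-146a_KO ones (2.17-fold, log2 1.12 ± 0.20, limma adjusted p = 0.0236). WT held 112 to 134 CPM and dKO 198 to 258 CPM. The call was lost in 5 of the 13 fits that left out a library, TIFAB_KO replicate 1 or 3 or any miR-146a_KO library, with adjusted p from 0.0871 to 0.183. Without TIFAB_KO replicate 3 the difference was 0.86.

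H2afy, which encodes the histone variant macroH2A1, was the only called gene besides Tifab whose TIFAB_KO level stood apart from WT. It had 422, 291 and 305 CPM in TIFAB_KO and 767, 775 and 662 CPM in miR-146a_KO. The groups did not overlap (2.19-fold, log2 1.13 ± 0.16, limma adjusted p = 0.00294). WT held 617 to 773 CPM, beside miR-146a_KO, and dKO 290 to 380 CPM, beside TIFAB_KO. Relative to WT it fell by 1.06 ± 0.16 in TIFAB_KO (limma adjusted p = 0.0378, where 0.0168% of genes were called lower) and by 1.04 ± 0.15 in dKO (limma adjusted p = 0.00533).

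Efcab7, a component of the ciliary complex of Hedgehog signalling, had 8.71, 11.2 and 12.0 CPM in TIFAB_KO and 22.8, 25.6 and 27.1 CPM in miR-146a_KO (2.37-fold, log2 1.25 ± 0.22, limma adjusted p = 0.0311). Here the dKO libraries, at 10.7 to 13.2 CPM, stood with WT at 7.59 to 12.1 CPM and with TIFAB_KO, not with miR-146a_KO. The call had the largest adjusted p of the 10 and was lost in 8 of the 13 fits that left out a library, with adjusted p up to 0.286.

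Cmss1, the homolog of a yeast factor of the small ribosomal subunit, had 24.8, 19.8 and 24.8 CPM in TIFAB_KO and 2.92, 4.08 and 5.62 CPM in miR-146a_KO. All miR-146a_KO libraries were far below those of TIFAB_KO (5.60-fold, log2 difference -2.48 ± 0.27, limma adjusted p = 0.000163). WT stood at 21.6 to 24.7 CPM, and the dKO libraries, at 8.07 to 14.7 CPM, lay between the single knockouts without overlap with either. The dKO difference from WT did not pass the test (log2 -1.04 ± 0.25, limma adjusted p = 0.155).

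The last 2 called genes were lower in miR-146a_KO than in TIFAB_KO, and their dKO libraries also lay above those of miR-146a_KO. The unnamed locus 1700112E06Rik had 7.28, 7.05 and 6.65 CPM in TIFAB_KO and 1.01, 1.14 and 1.28 CPM in miR-146a_KO, from 9, 12 and 10 reads (log2 difference -2.56 ± 0.34, limma adjusted p = 0.000886), with 3.15 to 7.03 CPM in dKO. The locus 2810417H13Rik, whose current RefSeq symbol is Pclaf and which encodes the PCNA clamp associated factor of replicating cells, had 113, 141 and 131 CPM in TIFAB_KO and 71.8, 75.0 and 69.8 CPM in miR-146a_KO. It is a smaller step, 1.77-fold (log2 difference -0.83 ± 0.14, limma adjusted p = 0.0231), with 93.8 to 108 CPM in dKO, and the call was lost in 5 of the 13 fits that left out a library, TIFAB_KO replicate 2 or 3 or any miR-146a_KO library, with adjusted p from 0.0651 to 0.183. Several of these genes overlap another gene in the annotation: Wdfy1 overlaps Mrpl44, Efcab7 Itgb3bp, Cmss1 Filip1l, 2810417H13Rik Trip4, and 1700112E06Rik 4930405A10Rik and Gm10248. Whether counting used the strand was not stated, so reads of overlapping genes cannot be told apart.

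**Figure D1:**
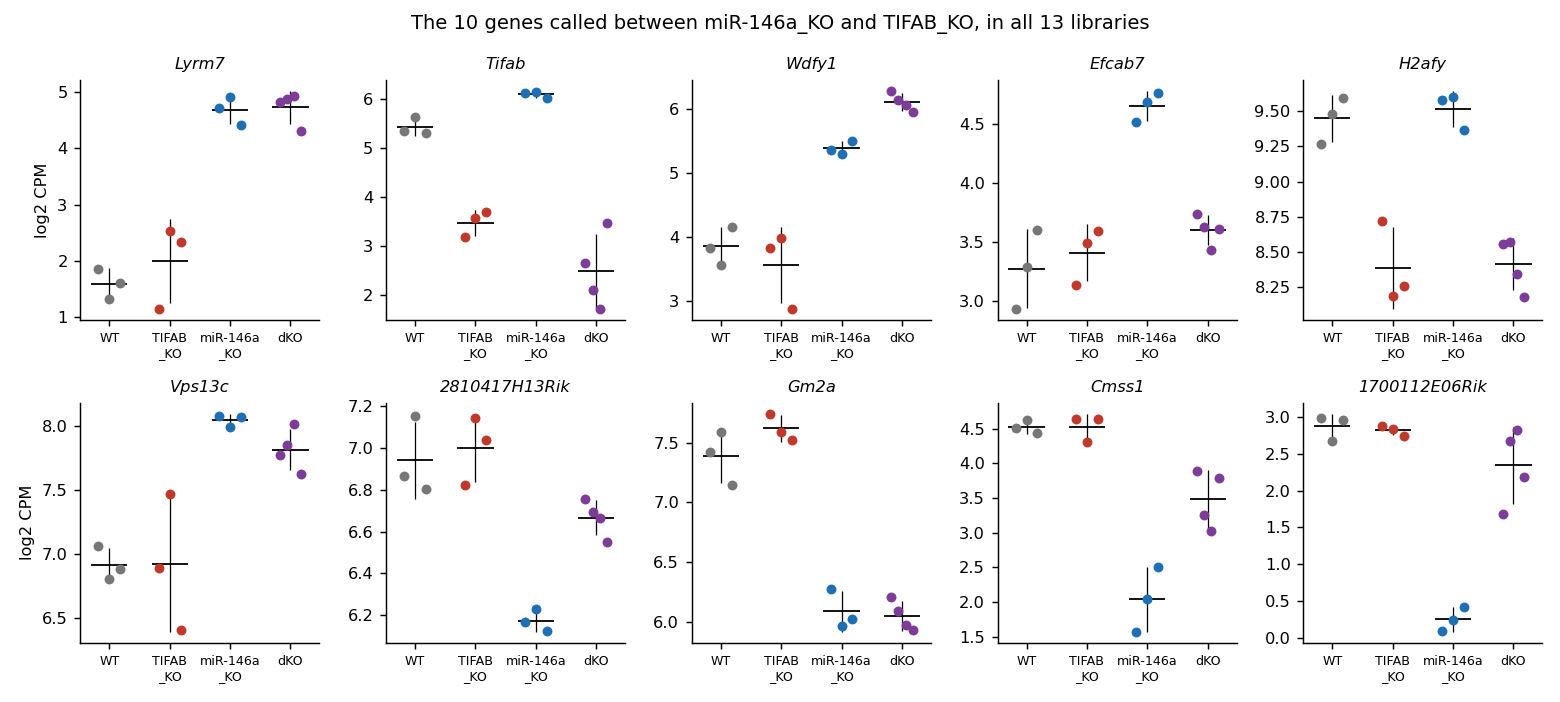
Levels (log2 CPM, vertical axis, a separate range for each panel) of the 10 called genes in the 13 libraries, by genotype. Points are libraries in replicate order, horizontal bars group means and vertical lines 1 SD. Tifab and H2afy are low in TIFAB_KO and dKO, Lyrm7, Wdfy1 and Vps13c are high and Gm2a low in miR-146a_KO and dKO, and Efcab7 stands out in miR-146a_KO.

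Of the genes called, 4 lie on the chromosomes of the targeted genes. H2afy (chr13:56073619-56136361) is 37.3 kb from Tifab (chr13:56173704-56178885). Lyrm7 (chr11:54826866-54860916) and Gm2a (chr11:55098115-55113029) are 237 kb from each other, and 11.5 and 11.7 Mb from Mir146. Lyrm7 was higher and Gm2a lower in miR-146a_KO. Ccdc69, the neighbour of Gm2a at a gap of 19983 bases, had 18.5, 13.5 and 20.6 CPM in TIFAB_KO and 7.42, 9.77 and 10.1 CPM in miR-146a_KO, groups without overlap whose difference did not pass the test (log2 -0.93 ± 0.23, limma adjusted p = 0.372).

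Apart from H2afy, genes close to the targeted loci did not pass. Within 2 Mb of Tifab 40 genes were tested and 2 were called, the targeted gene Tifab itself and H2afy (0.084% of all genes were called). The median difference was 0.08, near that of all genes. An unadjusted p under 0.05 was reached by 7 higher, Tifab and H2afy among them, and by 1 lower (8.30% and 2.53% of all genes). Tgfbi, a secreted matrix protein 0.45 Mb from Tifab, stood at 2.06 to 2.38 log2 CPM in TIFAB_KO and 3.12 to 3.45 in miR-146a_KO (log2 difference 1.12 ± 0.41, limma adjusted p = 0.448). Within 2 Mb of Mir146 8 genes were tested and 0 called by limma, the median difference was 0.48, and 5 had an unadjusted p under 0.05 with a higher level in miR-146a_KO (8.30% of all genes). The nearest, Pttg1 (securin, which holds sister chromatids together until anaphase), 45.8 kb away, was at 3.89 to 4.51 log2 CPM in TIFAB_KO and 4.88 to 5.50 in miR-146a_KO, without overlap (log2 difference 1.00 ± 0.28, limma adjusted p = 0.448). Its dKO mean, 5.23 log2 CPM, was that of miR-146a_KO, 5.24, and its WT mean was 4.33.

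**Figure D2:**
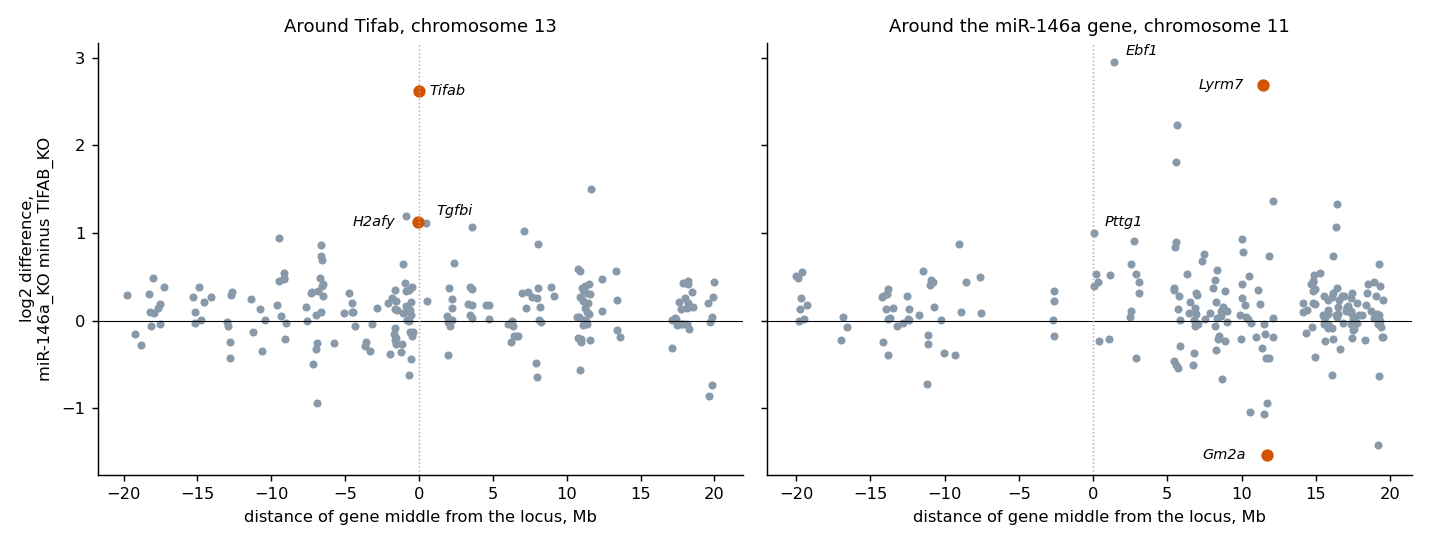
Log2 difference miR-146a_KO minus TIFAB_KO (vertical axis) of every tested gene within 20 Mb of Tifab (left) and of the miR-146a gene (right), against the distance of its middle from the locus in Mb. Orange points are called genes, and the called pair on chromosome 11, Lyrm7 at 2.68 and Gm2a at -1.53, lies beyond 11 Mb from the locus, on the same side.

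The reported targets of miR-146a were next. Of 11 tested members 0 were called by limma and 1 had an unadjusted p under 0.05, with a higher level (8.30% of all genes). Of the 11, 9 lay above 0 (61.8% of all genes), and the median difference was 0.31 (0.10 for all genes). Without TIFAB_KO replicate 3 the list's median was 0.10 and that of all genes 0.03. Traf6 stood at 191, 135 and 99.2 CPM in TIFAB_KO and at 158, 194 and 159 CPM in miR-146a_KO, and the groups overlapped (log2 difference 0.31 ± 0.20, limma adjusted p = 0.547). Irak1 stood at 158 to 184 CPM and at 165 to 191 CPM (0.08 ± 0.13, adjusted p = 0.833). The member with an unadjusted p under 0.05 was Ptgs2, which encodes the inducible cyclooxygenase, with 14.3, 15.4 and 14.4 CPM against 24.7, 21.4 and 30.8 CPM (0.79 ± 0.21, limma adjusted p = 0.448), and its 3 prime untranslated region held none of the matching letters.

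Over the transcriptome, 514 tested genes (4.74% of the 10838 with a 3 prime untranslated region) held the 8-base match AGTTCTCA. Their median difference was 0.16, that of all 10838 was 0.09, and that of 4893 genes without even a 7-base match but with a region of at least 1000 bases was 0.15. The median region length was 2741 bases for the genes with the 8-base match and 1993 bases for that last set, so the 2 sets were not matched in length. The part of region length in these medians was not tested. None of the called genes with an annotated region held the 8 bases, and Gm2a held 1 match of 7.

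Among those 44 signalling components, 33 (75%) lay above 0, beside 61.8% of all genes. Their median was 0.19, and 0.07 without TIFAB_KO replicate 3 (0.03 for all genes). Besides Wdfy1, 4 had an unadjusted p under 0.05, all higher, beside 8.30% of all genes. Chuk, the IKK-alpha kinase, had 47.5, 49.5 and 28.6 CPM in TIFAB_KO and 57.1, 60.2 and 50.9 CPM in miR-146a_KO. For Traf3, an adaptor of the TRIF arm, the log2 difference was 0.41 ± 0.18, and for Peli1, a ubiquitin ligase of the same receptors, 0.51 ± 0.22 (both limma adjusted p = 0.448). Tifa itself, the partner from which TIFAB takes its name, stood at 32.1 to 33.8 CPM in TIFAB_KO and 27.1 to 32.0 CPM in miR-146a_KO (-0.14 ± 0.22, limma adjusted p = 0.83).

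NF-kB and inflammatory response genes, the readout of that pathway, had 0 called by limma of 30 tested and a median of 0.25. The differences of its members ran from -1.57 to 1.38. An unadjusted p under 0.05 was reached by 3 higher and 2 lower, beside 8.30% and 2.53% of all genes. The chemokine Cxcl2 had 5.01, 2.53 and 2.82 CPM in TIFAB_KO and 6.29, 5.31 and 13.03 CPM in miR-146a_KO (1.19 ± 0.44, limma adjusted p = 0.448). WT stood at 7.18 to 7.95 CPM, above all TIFAB_KO libraries and above the miR-146a_KO libraries at 6.29 and 5.31 CPM. Ccl2, which draws monocytes, was scarce at 0.716 to 2.35 and 2.36 to 5.62 CPM.

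**Figure D3:**
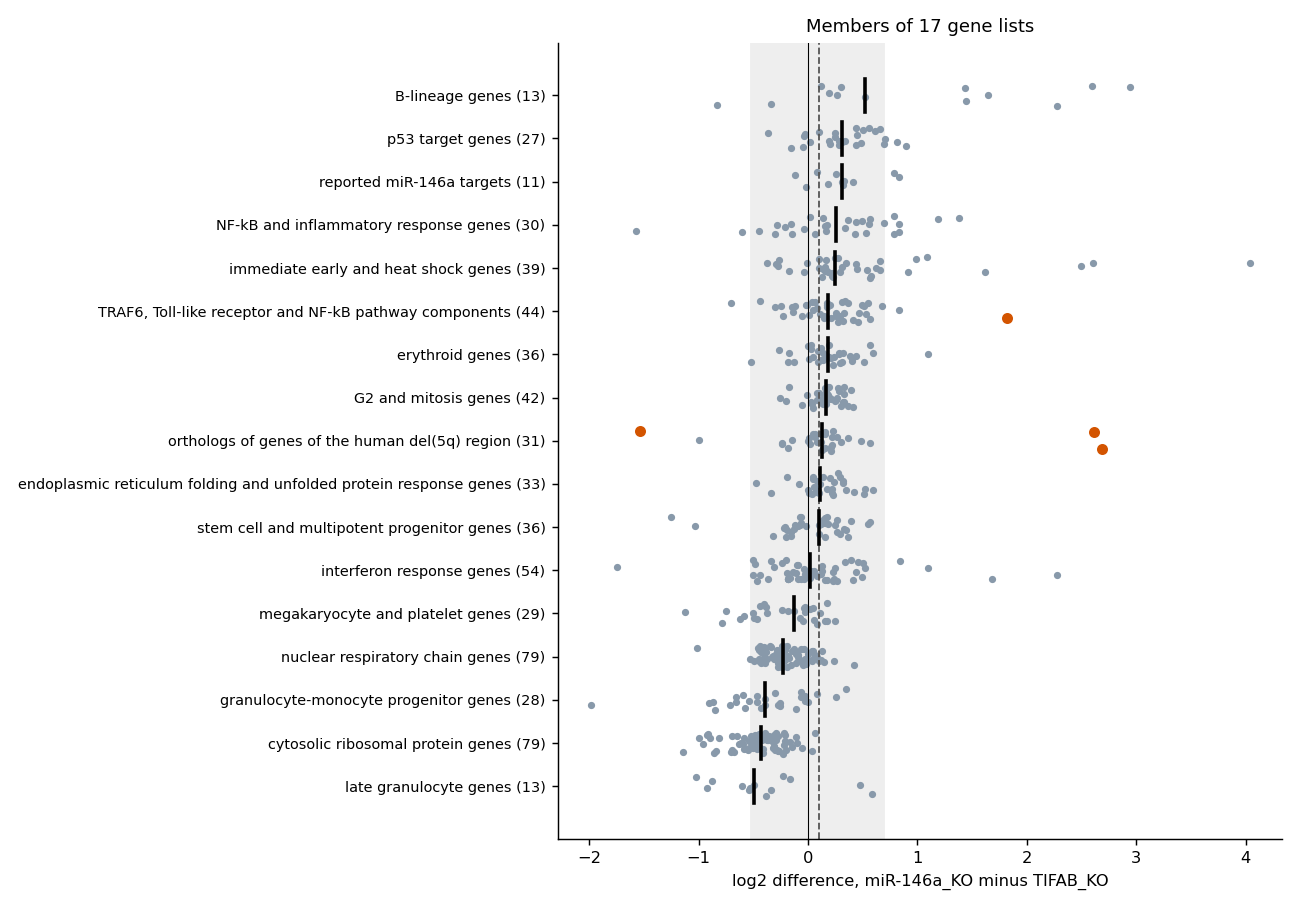
Log2 difference miR-146a_KO minus TIFAB_KO (horizontal axis) of each tested member of 17 gene lists, with the number tested in brackets. Black bars are list medians, orange points called genes, the dashed line the median of all genes (0.10) and the grey band their 5th to 95th percentile (-0.52 to 0.70). Called members appear in the signalling list (Wdfy1) and in the list of del(5q) orthologs (Lyrm7, Tifab and Gm2a), which does not include H2afy.

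Heat shock genes included wide differences that did not pass the test. These chaperones hold or refold unfolded proteins and are induced together by the factor HSF1. The list that joins them with immediate early genes had 39 tested members, of which limma called 0, 32 lay above 0 and 11 had an unadjusted p under 0.05, all higher in miR-146a_KO (8.30% of all genes). Split by function after the values were seen, the 12 chaperones and co-chaperones all lay above 0 (0.10 to 4.04, median 0.82) and 9 separated the groups (11.1% of all genes did so in this direction). The 27 immediate early genes had a median of 0.16, which moved between -0.04 and 0.52 with the TIFAB_KO library left out, and 1 separated the groups.

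Hspb1, the small heat shock protein HSP27, had 0.477, 1.54 and 3.28 CPM in TIFAB_KO, from 4, 17 and 42 reads. The miR-146a_KO libraries held 42.1, 19.6 and 14.9 CPM. The groups were far apart, at 4.04 ± 0.79 on the log2 scale, yet the limma adjusted p was 0.0715. The WT libraries, which enter the estimate of spread, held 0.834, 20.1 and 6.67 CPM. With only the 6 libraries in the fit the adjusted p was 0.0206, and without WT replicate 1 it was 0.00146. Other alternatives went further from the threshold, with 0.313 under limma-voom weights, 0.435 with no variance trend, 0.453 with robust variances and 0.553 without miR-146a_KO replicate 1.

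Hsph1, of the HSP110 family, had 286, 337 and 394 CPM in TIFAB_KO and 1329, 814 and 1023 CPM in miR-146a_KO. Every miR-146a_KO library was over the highest TIFAB_KO library (log2 difference 1.62 ± 0.36, limma adjusted p = 0.191). WT replicate 1 held 219 CPM and the other two 953 and 827, and without replicate 1 the adjusted p was 0.000293. With only the 6 libraries in the fit it was 0.00631, and 0.0173 with a term for replicate number added. Under every other alternative Hsph1 did not pass, with an adjusted p up to 0.761, the value with the 45S pre-rRNA share as a covariate. The 4 dKO libraries lay between the knockouts, at 510 to 668 CPM.

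Other chaperones had the same order. Bag3, a co-chaperone of HSP70, had 23.9 to 32.0 CPM in TIFAB_KO and 38.5 to 78.1 CPM in miR-146a_KO (0.99 ± 0.24, limma adjusted p = 0.302). For Hsp90aa1, the inducible HSP90, the ranges were 2165 to 2463 and 3468 to 3989 CPM (0.66 ± 0.16, limma adjusted p = 0.36). The near-identical HSP70 genes Hspa1a and Hspa1b, whose reads can be shared, ran from 19.6 to 143 and from 14.1 to 92.5 CPM in TIFAB_KO, and from 297 to 558 and from 220 to 382 CPM in miR-146a_KO. In WT replicate 1 they stood at 3.00 and 2.08 CPM. Over the 12 genes the mean deviation from the average of all libraries was -1.06, -0.42 and -0.19 in TIFAB_KO. In miR-146a_KO it was 1.05, 0.58 and 0.51, in dKO -0.07 to 0.06, and WT spanned -1.38 to 0.68. The knockouts separated from each other, yet TIFAB_KO lay inside the range of WT and 1 miR-146a_KO library above it.

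**Figure D4:**
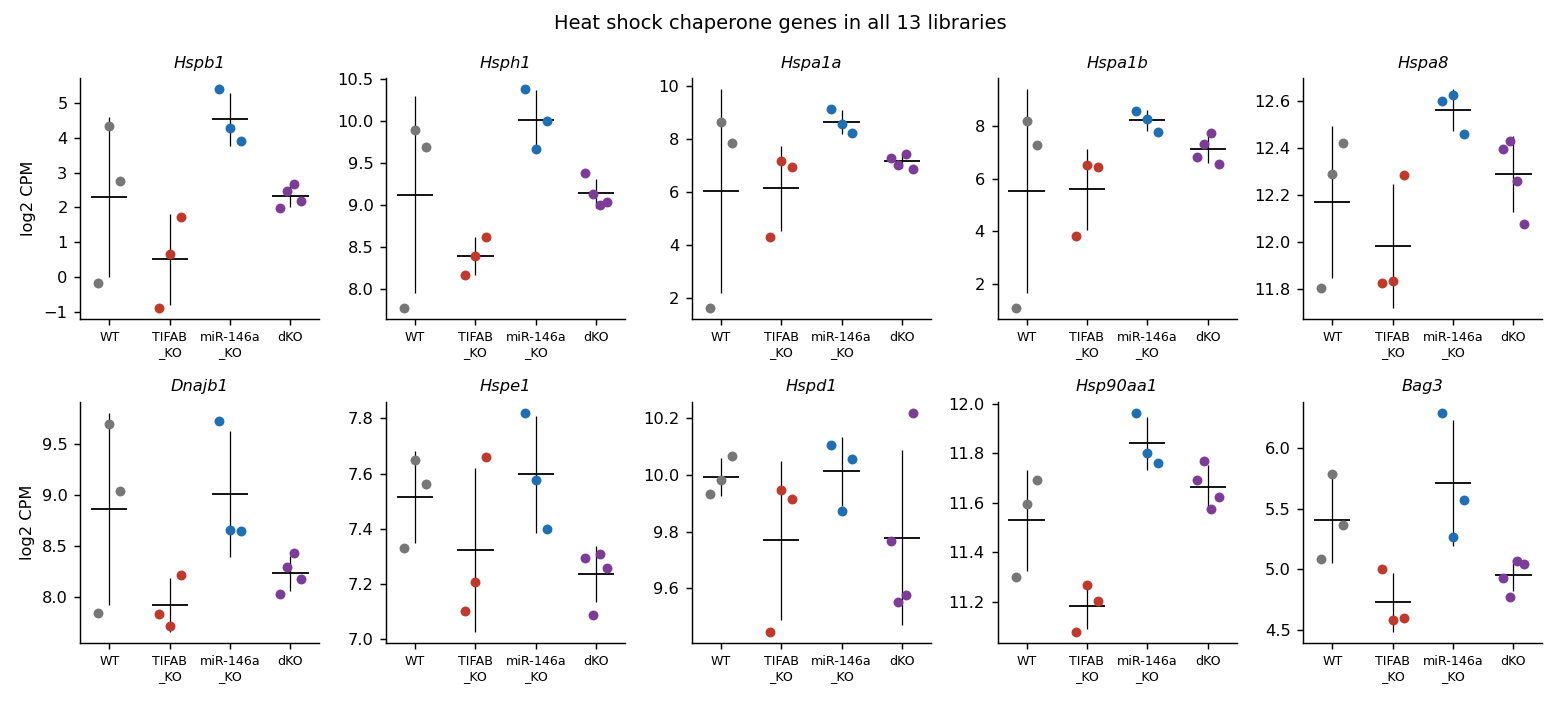
Levels (log2 CPM, vertical axis, a separate range for each panel) of 10 heat shock genes in the 13 libraries, by genotype. Points are libraries, horizontal bars group means and vertical lines 1 SD. Hspb1, Hsph1 and Hsp90aa1 separate miR-146a_KO from TIFAB_KO, and the first WT library is the lowest of its group in most panels.

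The DNA letters bound by HSF1, searched as GAANNTTCNNGAA and TTCNNGAANNTTC on both strands, were present in 198 of 32851 RefSeq promoter windows (0.603%, 250 bases before to 50 after a start, GRCm38.p6) and in the windows of 3 of the 9 chaperone genes in the table, Hsph1, Hspd1 and Hspe1. The stretch between the divergent genes Hspd1 and Hspe1, the mitochondrial chaperonin pair, is shown because it holds 2 overlapping matches, in capitals, at chr1:55088019-55088116 on the plus strand.
Hspe1 promoter: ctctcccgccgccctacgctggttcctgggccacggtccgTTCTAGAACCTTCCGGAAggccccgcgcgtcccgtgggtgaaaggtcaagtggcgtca

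The pair was among the 3 chaperones whose groups overlapped, with log2 differences of 0.24 ± 0.18 for Hspd1 and 0.27 ± 0.16 for Hspe1. The 55 tested genes with the letters in a window had a median of 0.16 and 8 separated the groups with higher values in miR-146a_KO, a share near the 11.1% of all genes.

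Lineage genes were examined because LK cells are a mixture, and in bulk RNA fewer cells of a type and less RNA per cell cannot be told apart. Genes of granulocyte-monocyte progenitors lay mostly below 0, on the side of lower levels in miR-146a_KO. Of 28 tested, 25 lay below 0 with a median of -0.40, 9 had an unadjusted p under 0.05 (2.53% of all genes), 9 separated the groups (5.71%) and limma called 0. Without TIFAB_KO replicate 3 the same number, 25, lay below 0 and the median was -0.41.

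Elane, neutrophil elastase, had 900, 1257 and 1099 CPM in TIFAB_KO and 793, 522 and 515 CPM in miR-146a_KO (log2 difference -0.85 ± 0.31). Ctsg, cathepsin G of the same primary granules, had 702, 924 and 1116 CPM and 689, 532 and 502 CPM (-0.66 ± 0.24). Neither gene's groups overlapped, though the highest miR-146a_KO library came close to the lowest TIFAB_KO library. Clec12a, an inhibitory lectin of myeloid progenitors, had 289 to 336 and 165 to 258 CPM (-0.53 ± 0.19), and Dmkn, the largest difference of the list, 2.19 to 3.34 and 0.449 to 1.23 CPM (-1.98 ± 0.65). All 4 had a limma adjusted p of 0.448.

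The summed level of the list placed TIFAB_KO above the rest. Its members added up to 19148 to 20910 CPM in TIFAB_KO, 13885 to 17484 in miR-146a_KO, 10195 to 16067 in WT and 11832 to 17157 in dKO. The miR-146a_KO sums lay within or just over those of WT. Late granulocyte genes had a median of -0.49 over 13 tested members, with 2 at an unadjusted p under 0.05, both lower (2.53% of all genes). The median was, however, -0.93 without TIFAB_KO replicate 1 and -0.21 without replicate 3. Monocyte, macrophage and dendritic cell genes went both ways, with a median of -0.12 (-0.23 to -0.07 with 1 library left out) and 10 of 27 above 0. Of the 27, 4 separated the groups with higher values (11.1% of all genes) and 3 with lower ones (5.71%). Cd68, a lysosomal protein of macrophages, stood at 52.2 to 56.1 CPM in TIFAB_KO and 27.5 to 37.4 CPM in miR-146a_KO (-0.67 ± 0.19, limma adjusted p = 0.448).

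Of the erythroid genes, 31 of 36 lay above 0 with a median of 0.18, but limma called 0, 1 had an unadjusted p under 0.05 (8.30% of all genes) and 3 separated the groups (11.1%), neither share above that of all genes. That gene was Ank1, the ankyrin of the red cell membrane, with 35.3, 37.95 and 34.4 CPM in TIFAB_KO and 47.9, 49.9 and 56.5 CPM in miR-146a_KO (0.52 ± 0.16, limma adjusted p = 0.448). Its WT mean, 5.79 log2 CPM, was near that of miR-146a_KO, 5.68, and TIFAB_KO stood at 5.17.

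Megakaryocyte and platelet genes had 4 of 29 with an unadjusted p under 0.05, all lower in miR-146a_KO (2.53% of all genes), a median of -0.13 and 0 calls by limma. The median was -0.05 without miR-146a_KO replicate 1, -0.34 without miR-146a_KO replicate 2, -0.23 without TIFAB_KO replicate 3 and -0.42 with the 45S pre-rRNA share as a covariate. Ppbp, the chemokine precursor of platelet granules, had 36.05, 28.0 and 35.1 CPM in TIFAB_KO and 14.7, 16.5 and 14.1 CPM in miR-146a_KO (-1.12 ± 0.25, limma adjusted p = 0.213). The platelet receptor subunits Itga2b (65.9 to 68.2 and 31.2 to 56.5 CPM, -0.58 ± 0.20) and Gp9 (20.5 to 25.5 and 8.99 to 18.7 CPM, -0.75 ± 0.28) also separated the groups. For Ppbp the TIFAB_KO mean equalled the WT mean, both 5.04 log2 CPM.

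B-lineage genes were scarce but had the highest list median, 0.52 over 13 tested members, with 11 above 0 (61.8% of all genes). An unadjusted p under 0.05 was reached by 4, all higher (8.30% of all genes), and limma called 0. Ebf1, a factor that commits cells to the B lineage and lies 1.24 Mb from Mir146, had 4, 5 and 5 reads in TIFAB_KO and 34, 23 and 47 in miR-146a_KO (log2 difference 2.95 ± 0.71, limma adjusted p = 0.313). Igll1, of the pre-B receptor, had 6, 11 and 7 reads and 57, 21 and 62 reads (2.60 ± 0.64, limma adjusted p = 0.345). Among other defining B-cell genes, Cd79a had 5, 5 and 6 reads in TIFAB_KO against 9, 9 and 20 in miR-146a_KO, and Ms4a1 had 0 to 4 in all 6 libraries. The summed level of the tested members was 102 to 109 CPM in TIFAB_KO and 116 to 151 CPM in miR-146a_KO, and the part of such cells in other results was not tested.

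Cytosolic ribosomal protein genes lay almost all below 0. Of 79 tested, 77 lay below 0 with a median of -0.43, 42 had an unadjusted p under 0.05 (2.53% of all genes) and 40 separated the groups (5.71%), while limma called 0. Rplp1, of the ribosomal stalk, had 280, 312 and 468 CPM in TIFAB_KO and 184, 176 and 186 CPM in miR-146a_KO (-0.92 ± 0.20, limma adjusted p = 0.191). Rps14, a small-subunit protein whose human gene is in the del(5q) region, had 232, 287 and 637 CPM and 175, 158 and 191 CPM (-0.999 ± 0.285, limma adjusted p = 0.448). In both genes TIFAB_KO replicate 3 was the highest library.

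The size depended on that library. Without it the ribosomal median was -0.22, with 73 of 79 below 0 and 5 at an unadjusted p under 0.05 (1.42% of all genes in that fit). The 79 nuclear genes of the respiratory chain had a median of -0.23 with 66 below 0, and without that library -0.06 with 54 below 0. The summed ribosomal protein level was 65001 to 101625 CPM in TIFAB_KO, 56255 to 63451 in miR-146a_KO, 69774 to 84152 in WT and 54506 to 63203 in dKO, so miR-146a_KO was below WT and TIFAB_KO was not above it in the other 2 libraries.

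Transcript length moved with the comparison. With genes split into 5 equal groups by their longest annotated transcript, the median difference was -0.09, 0.02, 0.09, 0.15 and 0.25 from the shortest to the longest genes, and -0.04, 0.00, 0.04, 0.05 and 0.08 without TIFAB_KO replicate 3. Of the ribosomal protein genes 83.5% are in the shortest group, up to 1978 bases, and of the respiratory chain genes 78.2%. The long nuclear RNA Malat1 had 3450.2, 2931 and 873 CPM in TIFAB_KO and 3143 to 4247 CPM in miR-146a_KO. With the 45S pre-rRNA share as a covariate the ribosomal median was -0.31 and the respiratory median -0.14, beside 0.02 for all genes. The part of length and RNA quality in the ribosomal and respiratory differences was not tested.

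**Figure D5:**
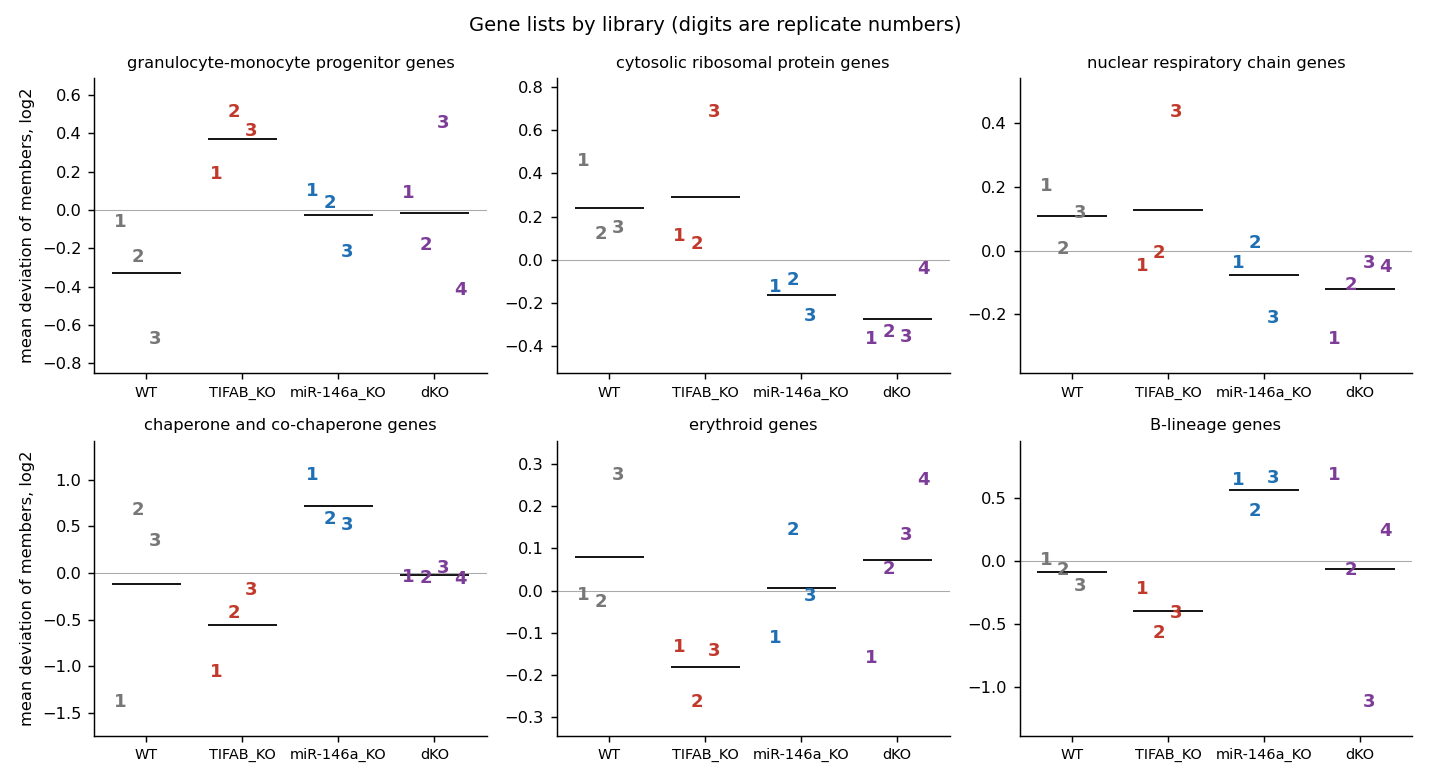
Mean deviation of the members of 6 gene sets from their own average over the 13 libraries (log2, vertical axis), by genotype. Digits are replicate numbers and black bars group means. TIFAB_KO replicate 3 stands apart in the ribosomal and respiratory sets, at 0.68 and 0.43, while the granulocyte-monocyte set is high in all 3 TIFAB_KO libraries.

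Among 27 tested targets of p53, a factor activated in del(5q) cells, 22 (81.5%) lay above 0, beside 61.8% of all genes. Their median was 0.31 (0.23 without TIFAB_KO replicate 3). Of the 27, 6 had an unadjusted p under 0.05, all higher (8.30% of all genes), and limma called 0. Zmat3, an RNA-binding p53 target, had 19.1, 21.5 and 15.5 CPM in TIFAB_KO and 25.8, 39.7 and 33.7 CPM in miR-146a_KO (0.81 ± 0.26). For Mdm2, the ligase that degrades p53, the ranges were 87.3 to 159 and 152 to 178 CPM (0.55 ± 0.19), and for Btg2, which slows division, 84.5 to 96.0 and 126 to 167 CPM (0.66 ± 0.22). All had a limma adjusted p of 0.448. The WT means of these 3 genes lay between those of the knockouts.

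The list of orthologs of the del(5q) region held 3 of the 10 calls among 31 tested (0.084% of all genes were called). It was written with earlier results of these data known, so this count cannot show an excess of calls in the region. Tifab and Lyrm7 were higher and Gm2a lower in miR-146a_KO, and the list's median was 0.13. The list does not hold every gene near its members: the called gene H2afy, 37.3 kb from Tifab, was not on it. Tifab is the targeted gene, and the other two are the chromosome 11 pair described above. Among the rest, Diap1, an actin nucleator, had 95.2 to 179 and 166 to 208 CPM (0.57 ± 0.22) and Apc, the brake on Wnt signalling, 135 to 199 and 209 to 281 CPM (0.48 ± 0.20), neither of which passed (limma adjusted p = 0.448).

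Of the remaining named genes, none passed. Higher values in miR-146a_KO without overlap were seen for Car12, a membrane carbonic anhydrase, at 5.97 to 8.22 and 15.2 to 15.8 CPM (1.20 ± 0.26, limma adjusted p = 0.168), and for Zbtb16, the progenitor factor PLZF, at 11.03 to 21.1 and 31.5 to 32.6 CPM (1.00 ± 0.23, limma adjusted p = 0.236). Their dKO levels, 9.03 to 18.1 and 23.3 to 36.3 CPM, were in all 4 libraries above the highest WT library, at 8.92 and 17.9 CPM. Lower values were seen for H1f0, the linker histone of resting cells, at 36.9 to 58.0 and 25.95 to 31.3 CPM (-0.76 ± 0.17, limma adjusted p = 0.216), with dKO at 41.6 to 46.3 CPM. Adck3, which supports ubiquinone synthesis and overlaps Cdc42bpa, Pls3, an actin-bundling plastin, Pdzk1ip1 and Sgce, a sarcoglycan, had log2 differences of -1.02 to -1.43 and limma adjusted p from 0.411 to 0.448.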

How the data were processed

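The deposited table gives log2 CPM per gene and library, as the authors computed it: each value fits a gene's reads plus 0.5 over the library's total plus 1. The submitters' processing notes name TopHat, featureCounts, limma and mm10, with versions "not given in the sources used here". Undoing that formula gave whole reads for 100% of values, to within 0.01 read, and from these the totals and CPM printed here.

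The test was limma 3.58.1 (R 4.3.3) on the log2 CPM, with 1 mean per genotype over all 13 libraries (residual degrees of freedom 9), variances moderated toward a trend with expression, two-sided, Benjamini-Hochberg over all genes tested, called at an adjusted p under 0.05. It was tested on simulated data. Differences are miR-146a_KO minus TIFAB_KO, and their errors are SE. Tables and figures were made with Python 3.11.15.

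Named were Tifab, the miR-146a gene, Traf6, Irak1 and Tifa, then called genes whose groups did not overlap and whose mean reached 1 log2 CPM, leaving out unnamed loci, filled to 10 a direction by unadjusted p, and up to 4 members per list by unadjusted p in the direction of the list's median. Genes near the loci, defining markers and further members given by value (Cyp11a1 and Chaf1b among them) were chosen after their values were seen. The comparison, the 31 gene lists and the rules were chosen with earlier results of these data known. Lists are described by counts and medians, without a test. Positions are from GENCODE M21 (GRCm38), which 94.5% of rows matched by symbol. No column of values was left unused. Alternatives were other filters, scalings, variance models and weights, a covariate, a block and each library left out.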

Additional observations from a re-analysis of the deposited data

How the results depend on the processing

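Over the 26 alternatives run with each of them, Lyrm7, Tifab, Wdfy1, Cmss1 and Gm2a passed in all, with adjusted p up to 0.0428. 1700112E06Rik, tested in 25, lost its call in the block alone, and H2afy in 2 (no variance trend, 0.0596, and the block, 0.0749). Vps13c lost it in 10, 2810417H13Rik in 9 and Efcab7 in 11, among them the fit of the 6 libraries alone and that with the 45S pre-rRNA share as a covariate (4 higher and 3 lower called). No direction reversed. With each library left out the number called ranged from 4 to 8 higher and from 3 to 5 lower. With no filter on expression 8 were higher and 7 lower, 9 of them among the 10. Hspb1 passed also with library quality weights and without WT replicate 2, Ppbp without WT replicate 3 (0.0382, other values up to 0.875) and H1f0 without TIFAB_KO replicate 2 (0.0299, up to 0.825). No pairing by replicate number was assumed. Deviations of same-numbered libraries correlated at 0.11, -0.05 and -0.16, but deviations centred within groups of 3 cannot show or exclude a pairing. The column names of TIFAB_KO replicate 1 and miR-146a_KO replicate 3 share a number, and the deviations of these libraries correlated at 0.03. Whether it marks a shared batch was not tested. A replicate block on the 6 libraries gave 5 higher and 2 lower, 5 of them among the 10. After the data were seen the counts of list members above and below 0 were repeated without TIFAB_KO replicate 3, with the values given above. Low reads limit the precision of Ebf1, Igll1, Hspb1, Dmkn and 1700112E06Rik.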

Other observations

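Interferon response genes had a median difference of 0.02 (-0.06 to 0.11 with 1 library left out) over 54 tested members. Of these 28 lay above and 26 below 0, and limma called 0. An unadjusted p under 0.05 was reached by 5 higher in miR-146a_KO and 1 lower (8.30% and 2.53% of all genes). The antiviral GTPase Mx2 stood at 0.716, 1.17 and 0.86 CPM in TIFAB_KO and 6.63, 2.37 and 5.88 CPM in miR-146a_KO (log2 difference 2.27 ± 0.66, limma adjusted p = 0.448), with a dKO mean of 0.31 log2 CPM beside a WT mean of 0.47. Irgm1, an interferon-induced GTPase, stood at 19.1 to 39.6 and 40.4 to 57.8 CPM (0.84 ± 0.29, limma adjusted p = 0.448), with dKO near miR-146a_KO. Mast cell, basophil and eosinophil genes went both ways, with 2 members at an unadjusted p under 0.05 higher and 2 lower (8.30% and 2.53% of all genes). Their median of -0.07 turned to 0.05 without TIFAB_KO replicate 3 and to 0.10 without miR-146a_KO replicate 3. The lowest and highest differences were those of Prss34, a basophil protease, at 13.9 to 16.9 CPM in TIFAB_KO and 2.94 to 7.97 CPM in miR-146a_KO (-1.54 ± 0.49), and of Cyp11a1, a steroid-forming enzyme, at 1.08 to 5.55 and 7.30 to 10.1 CPM (1.71 ± 0.64), both with a limma adjusted p of 0.448.

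Cell cycle lists differed little in size. G2 and mitosis genes had 37 of 42 above 0 and a median of 0.17, S-phase genes 27 of 42 and a median of 0.08, and limma called 0 in each. An unadjusted p under 0.05 was reached by 4 of the first, all higher, and by 5 higher and 2 lower of the second, beside 8.30% and 2.53% of all genes. Cdc6, a replication licensing factor, had 50.8, 64.5 and 60.4 CPM in TIFAB_KO and 75.5, 89.6 and 86.6 CPM in miR-146a_KO (0.52 ± 0.17, limma adjusted p = 0.448), and Chaf1b, a chromatin assembly subunit, 44.6 to 63.9 and 28.4 to 42.7 CPM (-0.55 ± 0.24, limma adjusted p = 0.451). Stem cell and multipotent progenitor genes had a median of 0.10, that of all genes, and -0.03 without TIFAB_KO replicate 3, where that of all genes was 0.03. Genes of folding in the endoplasmic reticulum had 29 of 33 above 0 and a median of 0.11, led by Syvn1, the ligase that disposes of unfolded proteins there, at 30.9 to 38.8 and 48.6 to 58.8 CPM (0.60 ± 0.17, limma adjusted p = 0.448).

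Lists with medians near 0 were those of mitochondrial ribosomal proteins (-0.04, 77 tested), translation factors (-0.03, 54), glycolysis (-0.06, 25) and cholesterol synthesis (0.05, 27). Proteasome subunits (-0.10, 39), small nucleolar RNA host genes (-0.12, 11) and replication-dependent histones (-0.13, 45) had medians of -0.02, -0.01 and 0.03 without TIFAB_KO replicate 3. T and NK cell genes had a median of 0.22 over 10 tested members, which turned to -0.12 without TIFAB_KO replicate 1 and to -0.02 under quantile normalization, and both members at an unadjusted p under 0.05 were lower. Stromal and endothelial genes had one of -0.04 over 16, which turned to 0.17 without miR-146a_KO replicate 1, with 0 calls by limma in any of these lists.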
